A study of Bos taurus with 56 samples.

Results

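The transforming growth factor beta (TGF-beta), activin and bone morphogenetic protein (BMP) genes were followed in RNA from the bovine oviduct epithelium. Members were taken by symbol: BMP, GDF or SMAD with a number, symbols beginning with ACVR, BMPR, TGFBR or INHB, and the named genes TGFB1, TGFB2, TGFB3, INHA, FST, FSTL3, NOG, GREM1, ID1, ID2, ID3, SKI, SKIL and AMHR2. The rule took 61 of the 31903 genes in the count table, and 42 of them reached a mean of at least 1 CPM (gene counts scaled to a common library size) over the 12 conditions and were compared. ID4, which the rule also names, was not analysed here. The minimum fell between INHA (1.01 CPM) and BMP3 (1.08 CPM) on the inner side and GDF11 (0.957 CPM) and GDF1 (0.861 CPM) on the outer side. BMP1, a protease that trims procollagen, BMP2K, a kinase of the endocytic pathway, and TGFBRAP1, a protein that binds TGF-beta receptors, were taken by their names and not as ligands or receptors.

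The 56 libraries came from 14 Holstein animals: 5 nulliparous heifers, 5 first-calving cows dried off at calving and never milked (non-lactating), and 4 first-calving cows that were milked (lactating). All had a synchronised oestrus (progesterone device, prostaglandin and GnRH), and the oviducts were collected on Day 3 of the cycle, about 60 days after calving in the cows. From each animal the epithelium of the ampulla, the wide part where fertilisation takes place, and of the isthmus, the narrow part toward the uterus, was gently scraped, once from the oviduct on the side of the corpus luteum (CL; ipsilateral) and once from the opposite oviduct (contralateral). Each condition therefore held 5 heifers, 5 non-lactating cows or 4 lactating cows, and replicates were different animals. Scraped tissue is a mixture of ciliated and secretory cells with whatever other cells come away, and a bulk level cannot tell fewer cells of a type from less RNA per cell.

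Ligands of this family bind pairs of type I and type II receptor kinases. TGF-beta and activin receptors phosphorylate SMAD2 and SMAD3, BMP receptors phosphorylate SMAD1, SMAD5 and SMAD9, and both kinds of SMAD enter the nucleus with the common partner SMAD4. SMAD6 and SMAD7 are feedback inhibitors, SKI and SKIL repress SMAD-driven transcription, and the ID genes, which encode inhibitors of basic helix-loop-helix factors, are textbook targets of BMP signals. In the female reproductive tract the family is known for roles in duct development, epithelial growth and the dialogue with the embryo.

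Reads counted on genes ranged from 1901454 to 6836850 per library (median 4931502.5), so 3 counts were worth 0.445 to 1.55 CPM. Epithelial, ciliated and secretory markers were present in every tissue, and some markers of other cell types were found beside others that were not. The summed secretory level varied widely between isthmus libraries, from 882 to 23551 CPM ipsilaterally and from 1346 to 26313 CPM contralaterally. In the ampulla it ran from 12524 to 24586 CPM and from 13815 to 48253 CPM. Among smooth muscle genes TAGLN, CNN1 and ACTG2 had a median at or near 0 in every tissue, while MYLK had medians of 11.5 to 46.0 CPM and MYH11 reached medians of 44.7 CPM in the ipsilateral and 24.5 CPM in the contralateral isthmus. Among endothelial genes CLDN5, ESAM and TIE1 had a median of 0 in every tissue, while TEK had medians of 8.92 to 19.7 CPM and KDR was present in every library. In the ipsilateral ampulla 4 libraries correlated best with another animal than the one their column name numbers. Of these, 2 went against their group (the library of heifer B was most like non-lactating cow B, and the reverse), while a non-lactating and a lactating library carried each other's animal number with a fitting group. The other 52 libraries matched their own animal. Each result that includes the ipsilateral ampulla was also computed without these libraries.

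**Figure D1:**
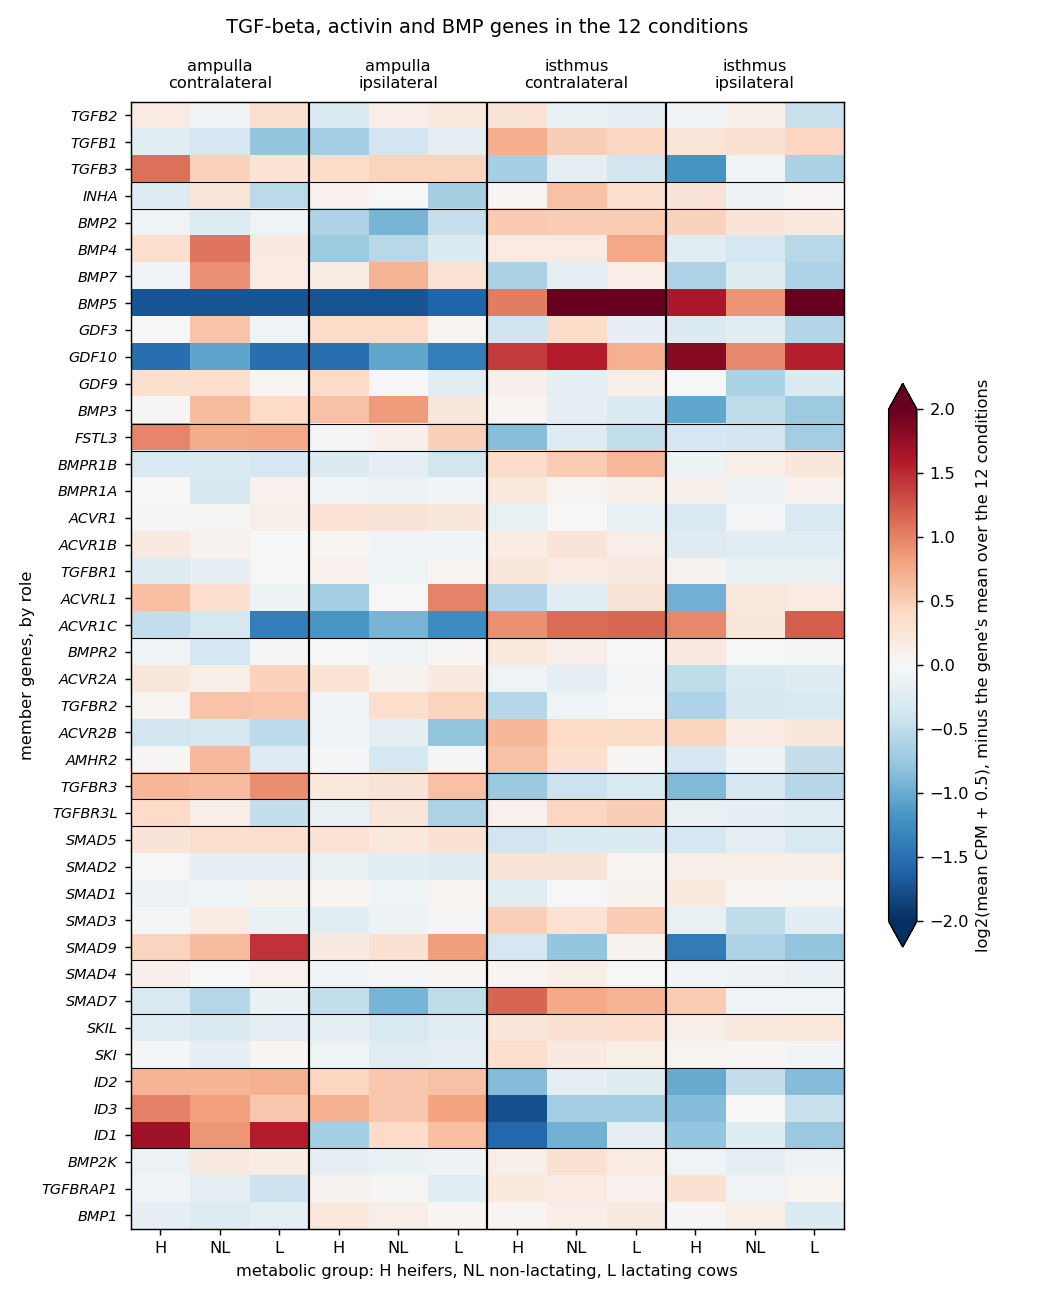
Each row is a member gene, ordered by role with black lines between roles, and each column is a condition (metabolic group within region and side); colour gives log2(mean CPM + 0.5) minus the gene's mean over the 12 conditions, cut at -2 and 2. BMP5, GDF10 and ACVR1C were higher in the 6 isthmus columns, and ID1, ID2, ID3, TGFBR3 and SMAD9 were mostly higher in the 6 ampulla columns.

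The largest differences among the members lay between isthmus and ampulla. In the isthmus the ligands TGFB1, BMP2, BMP5 and GDF10, the receptors BMPR1B and ACVR2B, the corepressor SKIL and SMAD2 were higher on both sides of the tract, whereas TGFB3, BMP7, the antagonist FSTL3, the receptors TGFBR2, TGFBR3 and ACVR2A, SMAD5, SMAD9 and the targets ID2 and ID3 were lower on both sides. On the ipsilateral side 20 of the 36 members tested were called by edgeR's quasi-likelihood test at an adjusted p under 0.05, 8 higher and 12 lower in the isthmus, against 51.3% of all genes tested. On the contralateral side 26 of 40 were called, 15 higher and 11 lower, against 44.6% of all genes. The share on the ipsilateral side (55.6%) was thus near that of all genes, and the share on the contralateral side was 65.0%. The median absolute log2 fold change of the members was 0.47 ipsilaterally and 0.48 contralaterally, against 0.31 and 0.32 over all genes.

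Among the 36 members tested on both sides 18 were called on both, all in the same direction, 8 higher and 10 lower. The shares of all genes called on both sides or on a single side are not given here. Neither this overlap nor the lists that follow are read as particular to these genes. ACVR1 and ACVR1B were called on the ipsilateral side and not on the contralateral side. BMPR2, SKI, TGFBR1, TGFBRAP1, SMAD3, SMAD7, ID1 and ACVR1C were called contralaterally and not ipsilaterally, and of these SMAD7, ID1 and ACVR1C did not pass the filter on low counts on the ipsilateral side. With the animal as a replicate block SMAD7 and ACVR1C were called higher and ID1 lower in the ipsilateral isthmus as well. BMP3, called under no setting contralaterally, was also called lower in the ipsilateral isthmus, and these calls brought that count to 24. The share of all genes called with the block is not given here. Of the alternatives that tested them ipsilaterally, ACVR1C and BMP3 were called in 4 of 4, SMAD7 in 3 of 5 and ID1 in 2 of 4.

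**Figure D2:**
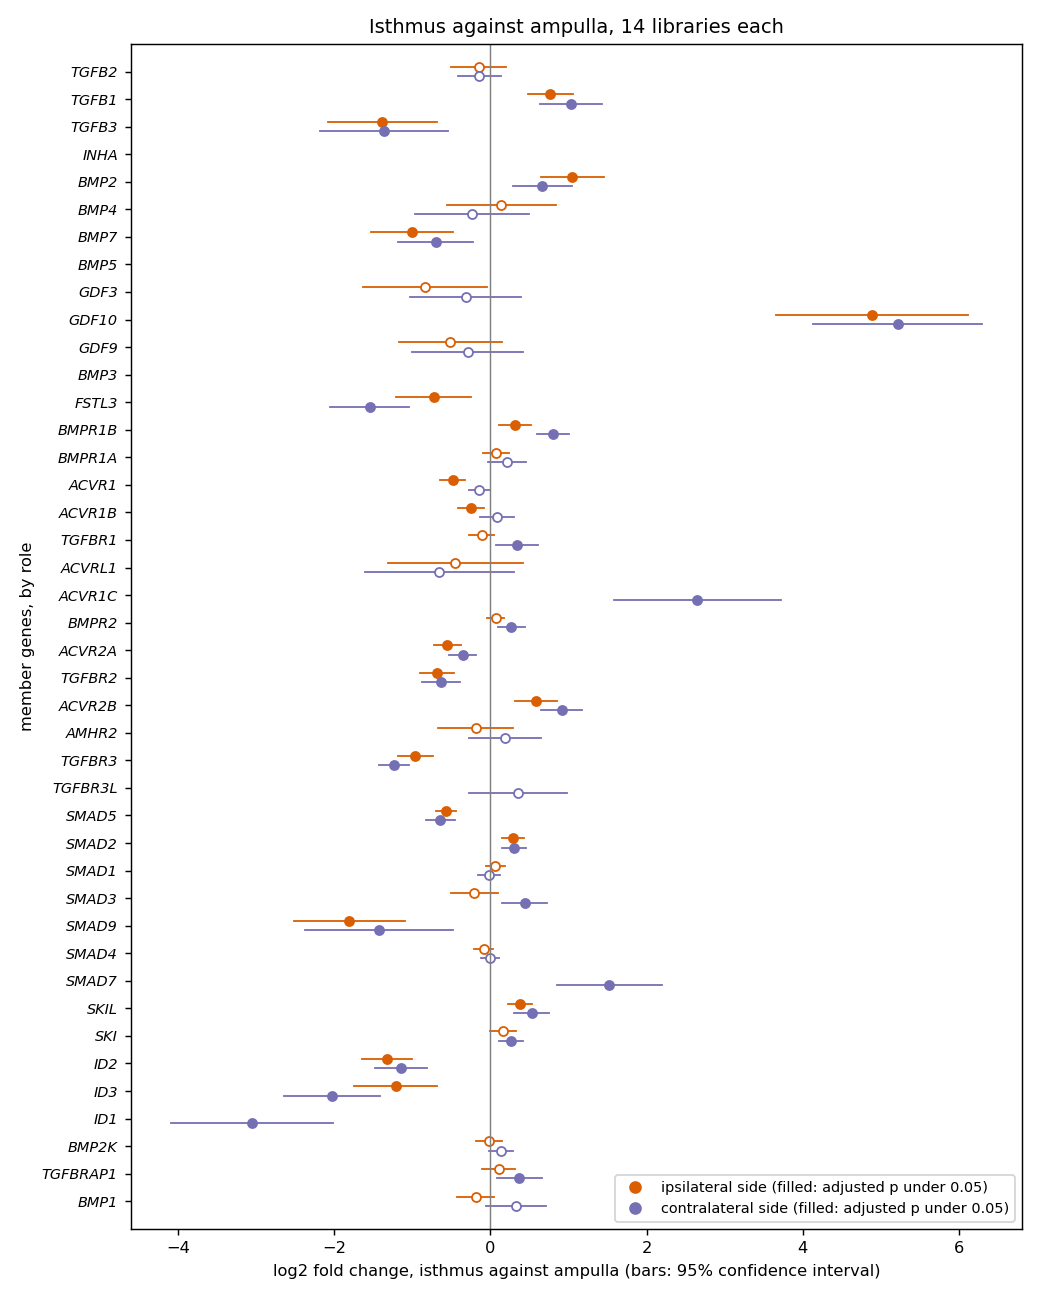
Points are log2 fold changes of the isthmus against the ampulla for each member tested, with 95% confidence intervals (horizontal axis, log2 scale) on the ipsilateral (orange) and contralateral (violet) side; filled points passed an adjusted p under 0.05. BMP5 is left out because its fold depends on ampulla libraries at 0, and a missing point did not pass the filter on low counts; the ID genes, TGFBR3, TGFB3 and SMAD9 lie to the left and GDF10 and ACVR1C to the right.

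Of the TGF-beta isoforms, TGFB1 was higher and TGFB3 lower in the isthmus, and TGFB2 was not called. TGFB1, the most studied isoform, ran from 6.87 to 14.3 CPM (median 10.03) in the ipsilateral isthmus and from 3.34 to 8.42 CPM (median 5.51) in the ipsilateral ampulla. Its log2 fold change was 0.76 ± 0.14 (SE) with an adjusted p of 4.06e-05. On the contralateral side TGFB1 spanned 6.21 to 17.3 CPM (median 11.96) in the isthmus and 1.33 to 9.14 CPM (median 6.08) in the ampulla, a log2 fold change of 1.03 ± 0.20 (adjusted p = 7.19e-05). The ranges overlapped, but TGFB1 was higher in the isthmus in 14 of 14 animals on the contralateral side.

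TGFB3 showed the opposite order at a low level. It had a median of 0.926 CPM (0 to 2.08) in the ipsilateral isthmus against 2.05 CPM (0.596 to 4.44) in the ipsilateral ampulla, and fell by 1.38 ± 0.34 on the log2 scale (adjusted p = 0.00122). On the contralateral side its median was 1.09 CPM (0 to 3.11) against 2.24 CPM (0.884 to 8.01), and fell by 1.36 ± 0.40 (adjusted p = 0.00639). TGFB2, an isoform that depends on betaglycan for binding to its receptors, had medians of 26.5 CPM (8.97 to 45.1) and 25.8 CPM (12.4 to 40.4) in the ipsilateral isthmus and ampulla, and of 26.0 CPM (18.1 to 51.2) and 28.8 CPM (21.2 to 47.3) on the contralateral side. The 95% intervals of its log2 difference were -0.50 to 0.21 and -0.41 to 0.13.

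Of the BMP and GDF ligands 3 were higher, 1 lower and 3 not called of 7 tested on each side, to be read beside the shares of all genes given above. BMP5 gave 353 counts over the 14 ipsilateral isthmus libraries (2 of them at 0) and 1 count over the 14 ipsilateral ampulla libraries, a ratio of 337 with a 95% counting interval of 60.1 to 13356. This interval leaves out the spread between animals, whose values ran from 0 to 20.3 CPM in the ipsilateral isthmus. Contralaterally BMP5 gave 346 counts in the isthmus (1 library at 0) and none in the ampulla. With 3 counts over the group as the floor, BMP5 was at least 139-fold higher in the contralateral isthmus. The test gave adjusted p values of 7.83e-09 and 2.03e-07.

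GDF10, also known as BMP3B, was present in all 28 isthmus libraries and at 0 in 11 of 14 ipsilateral and 13 of 14 contralateral ampulla libraries. It ranged from 0.634 to 12.1 CPM (median 2.54) in the ipsilateral isthmus and from 0.518 to 7.51 CPM (median 2.38) in the contralateral isthmus, while no ampulla library exceeded 0.919 CPM. The log2 fold changes were 4.89 ± 0.60 (adjusted p = 7.85e-08) and 5.21 ± 0.53 (adjusted p = 2.31e-09), and rested on 6 and 4 ampulla counts in all. BMP2, a BMP type ligand, had medians of 7.73 CPM (3.54 to 16.8) in the ipsilateral isthmus and 4.20 CPM (2.19 to 6.84) in the ipsilateral ampulla, with a log2 fold change of 1.05 ± 0.20 (adjusted p = 5.26e-05). Its contralateral medians were 9.92 CPM (6.99 to 16.2) and 6.15 CPM (3.19 to 11.1), with a log2 fold change of 0.67 ± 0.19 (adjusted p = 0.00405). BMP7 was the member of this group that fell, by 1.01 ± 0.26 ipsilaterally (adjusted p = 0.00165) and 0.70 ± 0.24 contralaterally (adjusted p = 0.0158). BMP4, GDF3 and GDF9 were not called on either side, with adjusted p values of 0.0736 or more.

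FSTL3, a secreted protein that binds and blocks activin, was the only extracellular antagonist of the rule that was compared. Its median in the contralateral ampulla was 6.53 CPM (1.38 to 11.5) and in the contralateral isthmus 2.36 CPM (0.960 to 3.99), and fell by 1.55 ± 0.25 on the log2 scale (adjusted p = 6.73e-06). On the ipsilateral side the medians were 3.82 CPM (1.79 to 6.87) and 2.78 CPM (0.635 to 4.36), and fell by 0.73 ± 0.23 (adjusted p = 0.0103). Hence FSTL3 was lower in the isthmus on both sides, with overlapping ranges.

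**Figure D3:**
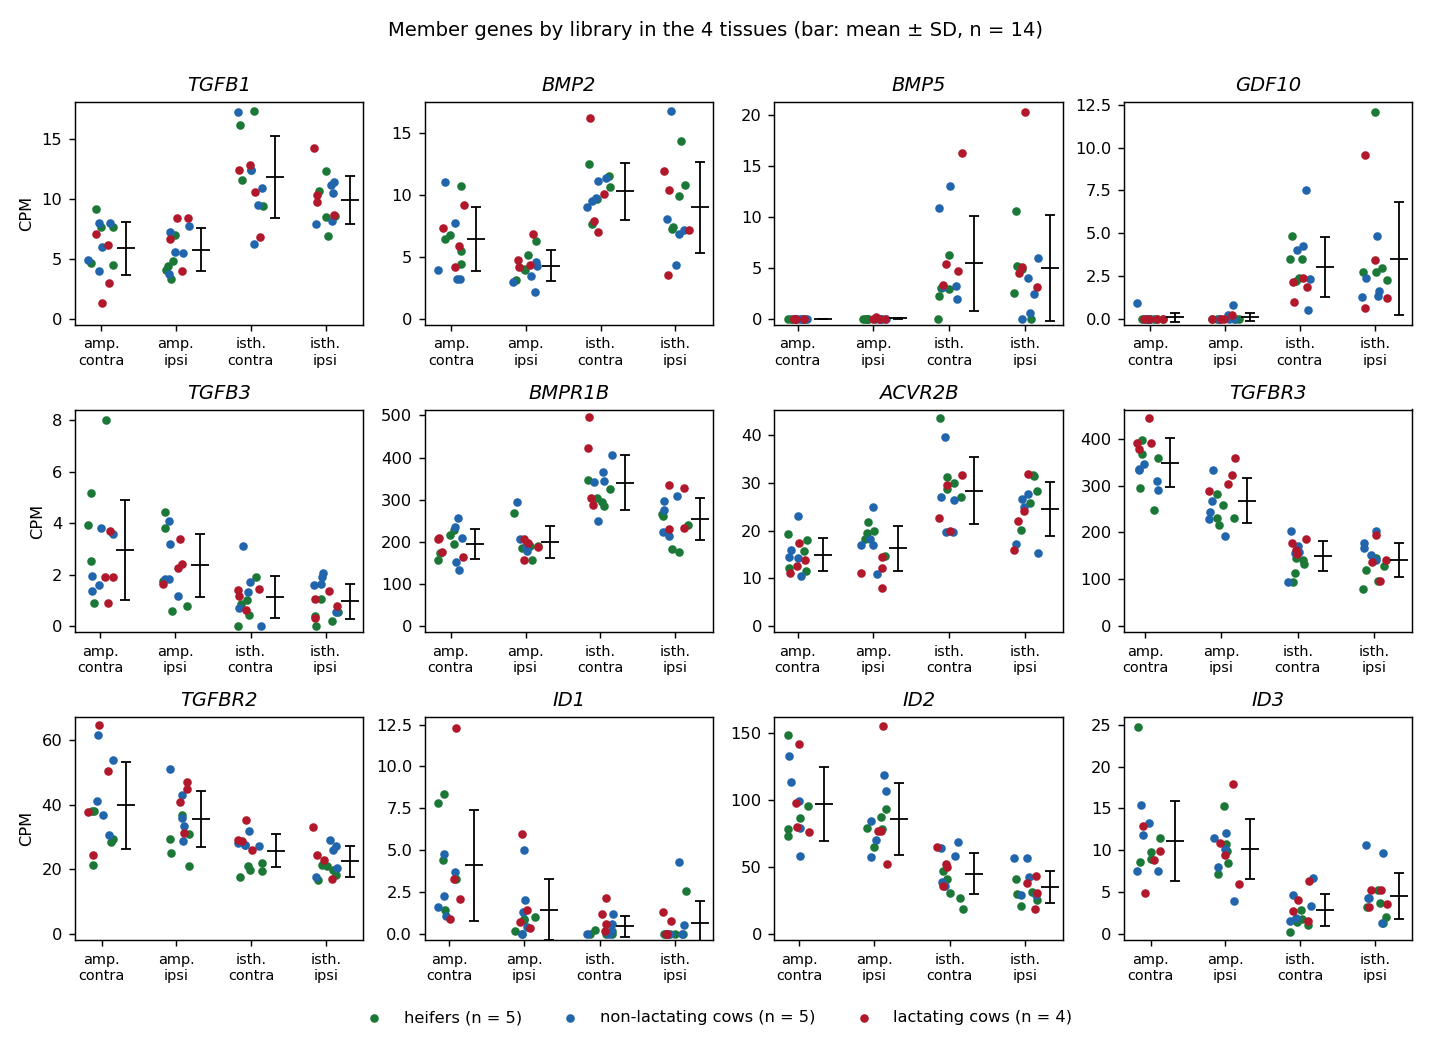
CPM of 12 member genes by library in the contralateral and ipsilateral ampulla and isthmus (points, coloured by metabolic group; the vertical axis of each panel is linear), with the mean ± SD over the 14 libraries of each tissue. BMP5 and GDF10 lay at or near 0 in the ampulla, and in the contralateral tissues the TGFBR3 values of isthmus and ampulla did not overlap.

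Receptor genes differed in both directions. TGFBR3 encodes betaglycan, a co-receptor that presents TGF-beta to TGFBR2 and also binds inhibin. It ranged from 93.7 to 204 CPM (median 156) in the contralateral isthmus and from 248 to 444 CPM (median 353) in the contralateral ampulla, so the tissues did not overlap. TGFBR3 fell by 1.23 ± 0.09 on the log2 scale (adjusted p = 7.45e-12), a 2.35-fold difference. Ipsilaterally TGFBR3 had a median of 140.4 CPM (79.0 to 204) in the isthmus and 263 CPM (193 to 358) in the ampulla, and fell by 0.96 ± 0.11 (adjusted p = 1.36e-08).

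TGFBR2, the type II receptor of TGF-beta, moved in the same direction as its co-receptor. It had medians of 21.3 CPM (16.8 to 33.02) in the ipsilateral isthmus and 34.8 CPM (21.2 to 51.0) in the ipsilateral ampulla, and fell by 0.68 ± 0.11 (adjusted p = 4.58e-06). The contralateral medians were 27.3 CPM (17.8 to 35.3) and 38.02 CPM (21.2 to 64.8), and fell by 0.63 ± 0.12 (adjusted p = 7.63e-05). TGFBR1, the type I receptor of TGF-beta, had ipsilateral medians of 21.6 CPM (17.9 to 28.2) in the isthmus and 24.7 CPM (18.4 to 30.4) in the ampulla and was not called there (log2 fold change -0.11 ± 0.08, adjusted p = 0.239). On the contralateral side it had medians of 27.5 CPM (20.5 to 31.2) and 21.0 CPM (11.8 to 37.8) and was higher in the isthmus by 0.34 ± 0.13 (adjusted p = 0.0322), and this call was lost without heifer B or E, lactating cow C, or non-lactating cow B or D.

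The type II receptors of activin moved apart. ACVR2A had medians of 44.3 CPM (29.0 to 56.4) in the ipsilateral isthmus and 62.1 CPM (45.1 to 74.5) in the ipsilateral ampulla, and fell by 0.55 ± 0.09 (adjusted p = 3.36e-06). Contralaterally it fell by 0.36 ± 0.08 (adjusted p = 0.000881), from a median of 68.9 CPM (41.9 to 89.4) in the ampulla to 51.6 CPM (43.1 to 62.0) in the isthmus. ACVR2B rose instead, by 0.58 ± 0.13 ipsilaterally (adjusted p = 0.000539) and 0.91 ± 0.13 contralaterally (adjusted p = 1.2e-06). BMPR2, the type II receptor for BMPs, was higher in the contralateral isthmus, by 0.27 ± 0.08 (adjusted p = 0.011), and stood at 0.07 ± 0.05 ipsilaterally (adjusted p = 0.321). AMHR2, the receptor of anti-Mullerian hormone, was not called, with log2 fold changes of -0.19 ± 0.23 and 0.19 ± 0.22.

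Of the type I receptors, BMPR1B, which binds BMPs and GDFs, was higher in the isthmus on both sides. It had medians of 334 CPM (250.1 to 496) in the contralateral isthmus and 201 CPM (134 to 258) in the contralateral ampulla, and was higher in the isthmus in 14 of 14 animals. The log2 fold change was 0.80 ± 0.10 (adjusted p = 1.11e-07). On the ipsilateral side the medians were 251 CPM (175 to 335) and 191 CPM (157 to 295), and the log2 fold change was 0.32 ± 0.10 (adjusted p = 0.00906).

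The other BMP type I receptors did not follow BMPR1B. BMPR1A was not called (0.07 ± 0.08 and 0.21 ± 0.12), and ACVR1 fell by 0.49 ± 0.08 ipsilaterally (adjusted p = 8.26e-06) while its contralateral log2 fold change was -0.14 ± 0.07 (adjusted p = 0.0846). ACVR1B, the type I receptor of activin, had ipsilateral medians of 43.6 CPM (35.6 to 54.5) in the isthmus and 52.0 CPM (38.3 to 70.1) in the ampulla and fell by 0.25 ± 0.08 (adjusted p = 0.0114). Its contralateral log2 fold change was 0.09 ± 0.11 (adjusted p = 0.535). ACVR1C, a type I receptor for nodal and some activins, had medians of 2.05 CPM (0.705 to 4.50) in the contralateral isthmus and 0 (up to 1.79) in the contralateral ampulla, with 8 of 14 ampulla libraries at 0. Its log2 fold change was 2.65 ± 0.53 (adjusted p = 0.000124).

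Among the receptor-regulated SMADs, those of the BMP branch fell or were not called and SMAD2 of the TGF-beta and activin branch rose. SMAD5 had medians of 264 CPM (218 to 327) in the ipsilateral isthmus and 382 CPM (324 to 457) in the ipsilateral ampulla, and fell by 0.57 ± 0.06 (adjusted p = 1.64e-08), and fell by 0.64 ± 0.09 contralaterally (adjusted p = 7.45e-07). SMAD9 fell from a median of 2.76 CPM (1.36 to 5.44) in the ipsilateral ampulla to 0.881 CPM (0 to 2.27) in the isthmus, by 1.81 ± 0.35 (adjusted p = 7.1e-05), and contralaterally by 1.43 ± 0.46 (adjusted p = 0.0127). SMAD1 had medians of 41.6 CPM (37.0 to 51.1) and 39.6 CPM (31.8 to 48.4) in the ipsilateral isthmus and ampulla, and the 95% intervals of its log2 difference were -0.06 to 0.18 ipsilaterally and -0.15 to 0.12 contralaterally. SMAD2 rose by 0.29 ± 0.07 (adjusted p = 0.00101) and 0.30 ± 0.08 (adjusted p = 0.00175).

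SMAD3 was called on the contralateral side, where its median was 23.7 CPM (13.5 to 36.4) in the isthmus and 17.02 CPM (12.1 to 23.0) in the ampulla (log2 fold change 0.44 ± 0.14, adjusted p = 0.0124). Its ipsilateral medians were 13.9 CPM (7.08 to 19.2) and 14.8 CPM (10.3 to 21.1), with a log2 fold change of -0.21 ± 0.15 (adjusted p = 0.251). SMAD4, which both branches share, was not called, with intervals of -0.21 to 0.04 and -0.12 to 0.10. SMAD7 had a median of 2.93 CPM (1.55 to 7.60) in the contralateral isthmus and 0.986 CPM (0.193 to 3.17) in the contralateral ampulla, a log2 fold change of 1.52 ± 0.33 (adjusted p = 0.000339). The corepressor SKIL rose by 0.38 ± 0.08 ipsilaterally (adjusted p = 0.000125) and 0.53 ± 0.11 contralaterally (adjusted p = 0.000211), and SKI by 0.27 ± 0.08 contralaterally (adjusted p = 0.00515). TGFBRAP1 was higher in the contralateral isthmus by 0.37 ± 0.14 (adjusted p = 0.0343), a call lost without heifer B or C, lactating cow A, B or C, or non-lactating cow C, D or E.

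The ID genes were lower in the isthmus wherever they were tested. ID2 had a median of 30.8 CPM (18.7 to 56.8) in the ipsilateral isthmus and 78.8 CPM (52.0 to 155) in the ipsilateral ampulla, and fell by 1.32 ± 0.16 (adjusted p = 4.5e-08), a 2.498-fold difference. Contralaterally its medians were 43.9 CPM (18.6 to 68.9) and 91.3 CPM (58.1 to 149), and fell by 1.14 ± 0.16 (adjusted p = 8.43e-07) in 14 of 14 animals. ID3 had medians of 2.28 CPM (0.217 to 6.73) in the contralateral isthmus and 9.88 CPM (4.86 to 24.7) in the contralateral ampulla, and fell by 2.03 ± 0.30 (adjusted p = 2.11e-06) in 14 of 14 animals.

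The ipsilateral medians of ID3 were 4.01 CPM (1.26 to 10.6) and 10.1 CPM (3.95 to 17.96), and fell by 1.22 ± 0.26 (adjusted p = 0.000225). ID1 was scarcer, with a median of 0.201 CPM (0 to 2.14) in the contralateral isthmus and 3.28 CPM (0.884 to 12.3) in the contralateral ampulla, and fell by 3.05 ± 0.51 (adjusted p = 1.12e-05). It was at 0 in 9 of 14 ipsilateral isthmus libraries and in 2 of 14 ipsilateral ampulla libraries, where its median was 0.839 CPM (0 to 5.99). Of the targets of the BMP branch, then, ID2 and ID3 were called on both sides and ID1 on the contralateral side.

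Cell type markers differed between the regions too. All 6 epithelial markers were called higher in the ipsilateral isthmus and 3 of 6 in the contralateral isthmus. Of the 12 ciliated markers, 11 were called lower in the isthmus on the ipsilateral side and 12 on the contralateral side, and their summed level had a median of 6731 CPM (5194 to 8250.4) in the ipsilateral isthmus and 9524 CPM (7783 to 12111) in the ipsilateral ampulla. Of the 6 secretory markers 4 were called lower and 0 higher in the ipsilateral isthmus, and 3 lower and 1 higher in the contralateral isthmus. The summed fibroblast list had medians of 166 CPM (88.3 to 260.3) and 246 CPM (90.7 to 619) in the ipsilateral and contralateral isthmus, and of 45.9 CPM (31.1 to 82.4) and 41.2 CPM (31.7 to 202) in the ampulla. In the isthmus most of it was FBLN1, while LUM had medians of 6.15 and 12.7 CPM there (0 in the ampulla) and DPT was at or near 0. Of the fibroblast markers tested, 2 of 5 were called higher and 1 lower in the ipsilateral isthmus, and 3 of 6 higher and 1 lower in the contralateral isthmus. The summed endothelial list had medians of 30.99 CPM (13.7 to 58.1) and 45.9 CPM (17.6 to 124) in the isthmus and 159 CPM (99.6 to 384) and 229 CPM (180.4 to 417) in the ampulla, where most of it was KDR, and 4 of 5 endothelial markers tested were called lower in the isthmus on each side. The smooth muscle list had 1 member called higher in the isthmus on each side, with 3 called lower ipsilaterally and 2 contralaterally. Of the macrophage markers tested, 1 of 5 was called lower in the ipsilateral isthmus and 0 of 6 were called contralaterally. Of the lymphocyte markers 1 of 6 was called lower on each side. The part of these cell types in the differences between regions was not tested.

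Pathway genes outside the symbol rule, in 6 lists chosen with earlier results of these data known, differed between the regions as well. In these lists 38 of 61 genes tested were called ipsilaterally (22 higher, 16 lower in the isthmus) and 42 of 62 contralaterally (27 higher, 15 lower), against 51.3% and 44.6% of all genes. The 3 largest changes on both sides were rises of THBS1, CTGF and MSX1. THBS1, thrombospondin, which can activate latent TGF-beta, rose by 6.24 ± 0.38 ipsilaterally and 7.10 ± 0.34 contralaterally. CTGF, a matricellular gene that responds to TGF-beta, rose by 4.84 ± 0.36 and 5.79 ± 0.36, and MSX1, a homeobox target of BMPs, by 3.42 ± 0.32 and 4.08 ± 0.30. MSX1 thus moved against the ID genes.

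By list, 12 of 13 genes that store or present ligand were called ipsilaterally (6 higher) and 12 of 14 contralaterally (7 higher). Of the 7 antagonists tested all were called ipsilaterally and 6 contralaterally, 5 of them higher on each side. Known targets split evenly, with 7 of 15 called ipsilaterally (3 higher, 4 lower) and 10 of 15 contralaterally (5 higher, 5 lower). The ipsilateral share of these targets, and that of the intracellular regulators, lay below the 51.3% of all genes. Intracellular regulators were called in 10 of 22 (6 higher) and 11 of 22 cases (7 higher), and BMP co-receptors in 1 and 2 of 3, all higher. TDGF1, the co-receptor of nodal listed with the ligands outside the rule and the only gene of that list tested, was higher on both sides (2.42 ± 0.37 and 2.51 ± 0.59).

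Within the isthmus the members were compared between the ipsilateral and contralateral oviduct, which asks whether the nearby CL goes with a different expression. With the 3 metabolic groups pooled and group as a term, 10 of 34 members tested were lower in the ipsilateral isthmus and 0 were higher, against 29.3% of all genes called and 13.2% called lower. They were the receptors ACVR1B, BMPR1B, TGFBR1, ACVR2A and AMHR2, the signal carriers SMAD3 and SMAD4, the inhibitors SMAD7 and SKI, and the kinase BMP2K. The share called (29.4%) equalled that of all genes. The median log2 fold change of the 34 members was -0.20, against -0.005 over all genes, and 29 of the 34 lay below 0.

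**Figure D4:**
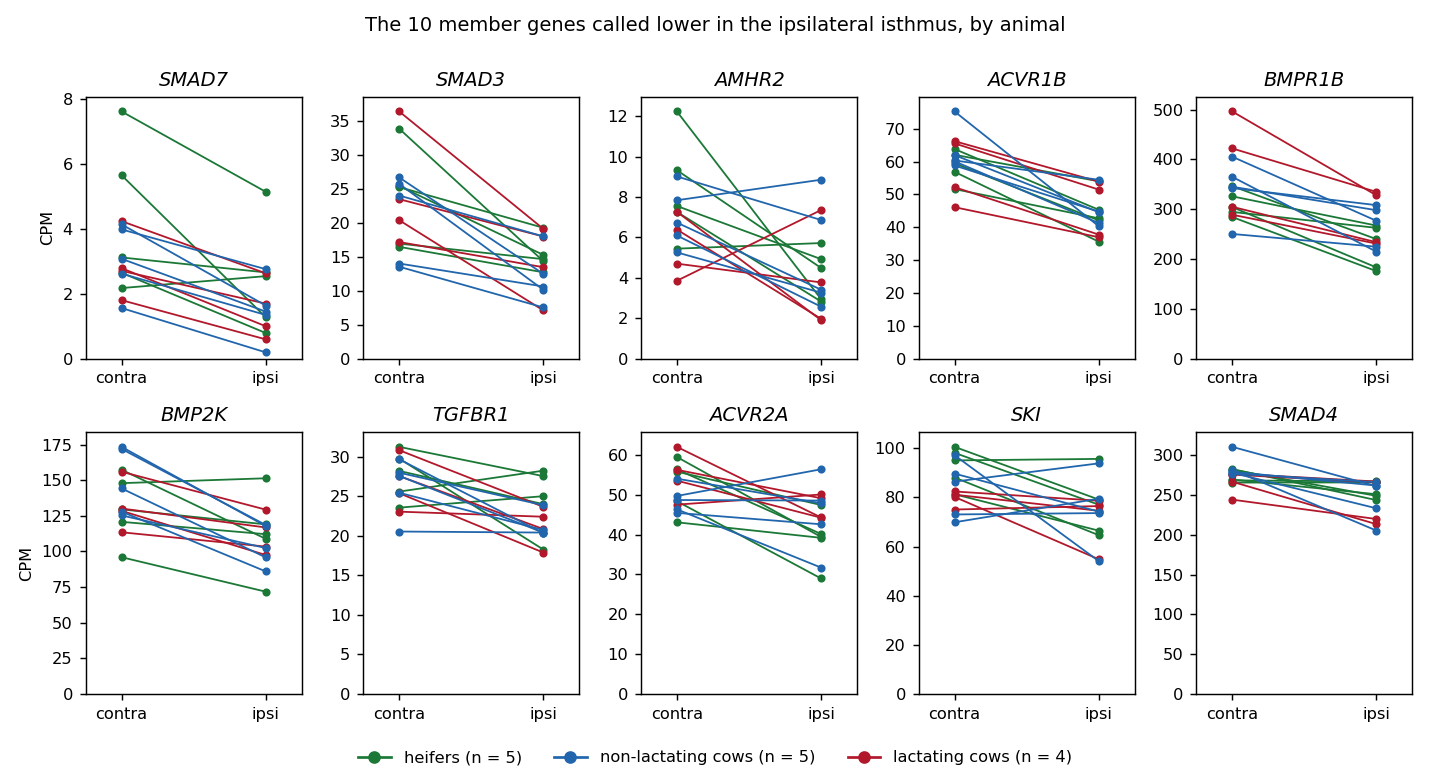
CPM in the contralateral and ipsilateral isthmus for the 10 members called with the groups pooled, 1 line per animal (14 animals), coloured by metabolic group, on linear axes that start at 0. The lines of ACVR1B, BMPR1B and SMAD3 fell in 14 of 14 animals.

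The largest falls were in SMAD7, SMAD3 and AMHR2. SMAD3 had a median of 13.9 CPM (7.08 to 19.2) ipsilaterally and 23.7 CPM (13.5 to 36.4) contralaterally, and fell by 0.75 ± 0.16 on the log2 scale (adjusted p = 0.00055) in all 14 animals. SMAD7 had medians of 1.54 CPM (0.189 to 5.13) and 2.93 CPM (1.55 to 7.60), and fell by 0.93 ± 0.29 (adjusted p = 0.0152) in 13 of 14 animals. AMHR2 had medians of 3.59 CPM (1.90 to 8.85) and 6.995 CPM (3.85 to 12.2), and fell by 0.70 ± 0.21 (adjusted p = 0.0121) in 11 of 14 animals. Thus SMAD3, a carrier of TGF-beta and activin signals, and the feedback inhibitor SMAD7 were both lower on the CL side, with overlapping ranges. SMAD2, the other carrier of this branch, was not called. Its medians were 76.3 CPM (64.1 to 90.0) ipsilaterally and 81.8 CPM (60.8 to 96.3) contralaterally. The SMAD7 median on the CL side lay near the 1.55 CPM that 3 counts were worth in the shallowest library.

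ACVR1B had the smallest adjusted p of the members. It ranged from 35.6 to 54.5 CPM (median 43.6) ipsilaterally and from 46.1 to 75.3 CPM (median 60.2) contralaterally, and fell by 0.43 ± 0.07 (adjusted p = 7.27e-05) in 14 of 14 animals. BMPR1B fell by 0.42 ± 0.09 (adjusted p = 0.00102) in 14 of 14 animals, from a median of 334 CPM (250.1 to 496) to 251 CPM (175 to 335). ACVR1B and BMPR1B thus fell by similar amounts, 1.35-fold and 1.34-fold. Of the 6 type I receptors tested, 3 were called lower and 3 (BMPR1A, ACVR1 and ACVR1C) were not called.

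Smaller falls were seen in 5 other members. BMP2K fell by 0.33 ± 0.09 (adjusted p = 0.00787, 13 of 14 animals) and TGFBR1 by 0.27 ± 0.08 (adjusted p = 0.00701, 12 of 14 animals), the latter from a median of 27.5 CPM (20.5 to 31.2) to 21.6 CPM (17.9 to 28.2). ACVR2A fell by 0.26 ± 0.08 (adjusted p = 0.0132, 12 of 14 animals), from 51.6 CPM (43.1 to 62.0) to 44.3 CPM (29.0 to 56.4). SMAD4 fell by 0.16 ± 0.05 (adjusted p = 0.00958, 13 of 14 animals) and SKI by 0.20 ± 0.07 (adjusted p = 0.0375, 9 of 14 animals). The SKI call was lost without heifer A, B, C or E, lactating cow A, or non-lactating cow C or D.

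The ligands, FSTL3 and the ID genes were not called between the sides of the isthmus. TGFB1 had medians of 10.03 CPM ipsilaterally and 11.96 CPM contralaterally (log2 fold change -0.26 ± 0.14, adjusted p = 0.16), and TGFB2 26.5 and 26.0 CPM (-0.11 ± 0.17, adjusted p = 0.666). TGFBR2 stood at -0.19 ± 0.09 (adjusted p = 0.102) and TGFBR3 at -0.09 ± 0.11 (adjusted p = 0.567). ID2 stood at -0.35 ± 0.16 (adjusted p = 0.0949) and ID3 at 0.71 ± 0.31 (adjusted p = 0.0845). SMAD1 had the largest rise of the SMAD genes without passing the threshold (0.14 ± 0.06, adjusted p = 0.0796). ID1 and TGFB3 did not pass the filter on low counts here.

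Markers of other cell types were looked at beside these falls. No fibroblast marker was called higher and 1 of 6 tested was called lower in the ipsilateral isthmus, with the summed levels given above. Of the smooth muscle markers 2 of 5 tested were higher, of the endothelial markers 1 of 5 was higher and 1 lower, of the epithelial markers 3 of 6 were higher and 1 lower, of the 12 ciliated markers 1 was higher and 2 lower, and of the 6 secretory markers 1 was higher and 1 lower. Of the macrophage markers 0 of 6 tested were called, and of the lymphocyte markers 0 of 5. The part of these cell types in the result was not tested. In the pathway lists outside the symbol rule 20 of 61 genes were called, 6 higher and 14 lower on the CL side, against 29.3% of all genes called (16.1% higher and 13.2% lower), with the 3 largest changes in TDGF1 (1.79), FBN1 (-1.43) and LTBP1 (-1.41).

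Within each metabolic group fewer members passed the test. In heifers 5 of 31 members tested were called in the isthmus, against 10% of all genes (5.71% higher and 4.34% lower): SMAD1 was higher ipsilaterally, and BMPR1B, ACVR2A, ACVR1B and AMHR2 were lower. In non-lactating cows 2 of 33 were called, BMP2K and ACVR1B, both lower, against 5.11% of all genes (2.94% higher and 2.17% lower). In lactating cows 0 of 35 members were called by edgeR, with 3 at an unadjusted p under 0.05, against 0.187% of all genes (0.144% higher and 0.0432% lower) and 12.2% at an unadjusted p under 0.05, and DESeq2 also called 0. The interaction of side and group was called for 0 of 38 members, and for 0% of all genes, so no member was shown to respond differently between the groups.

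SMAD1, a carrier of BMP signals, was the member that rose in heifers. Heifers A to E had 51.1, 41.7, 40.2, 44.9 and 50.2 CPM in the ipsilateral isthmus and 36.3, 34.7, 30.8, 33.6 and 36.0 CPM in the contralateral isthmus, and the sides did not overlap. The log2 fold change was 0.39 ± 0.11 (adjusted p = 0.0389), against 0.04 ± 0.11 in non-lactating and -0.04 ± 0.11 in lactating cows. The side by group interaction of SMAD1 had an unadjusted p of 0.0061 and an adjusted p of 1, and the heifer call was lost whichever heifer was left out.

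Among the receptors that fell in heifers, BMPR1B also had sides that did not overlap, with 175, 267, 183, 262 and 239.7 CPM ipsilaterally and 284, 326, 304, 294 and 346 CPM contralaterally. Its log2 fold change was -0.49 ± 0.13 (adjusted p = 0.0303). ACVR1B was lower in the 5 heifers (42.1, 35.6, 42.7, 54.0 and 45.3 CPM against 59.5, 56.9, 51.6, 62.1 and 63.8 CPM), by 0.44 ± 0.12 (adjusted p = 0.0336). These sides overlapped through heifer D on the ipsilateral and heifer C on the contralateral side. ACVR2A fell by 0.46 ± 0.13 (adjusted p = 0.0448) and AMHR2 by 1.02 ± 0.29 (adjusted p = 0.0412). With the animal as a replicate block AMHR2 was no longer called (adjusted p = 0.0549), while SMAD3 was called lower (adjusted p = 0.0378 against 0.0604 without the block). Without heifer A, B, C or E no member was called, and 4 were called without heifer D.

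In non-lactating cows ACVR1B did not overlap between the sides. Cows A to E had 44.6, 41.3, 40.3, 44.7 and 54.5 CPM ipsilaterally and 62.0, 60.1, 75.3, 58.8 and 60.3 CPM contralaterally, a log2 fold change of -0.50 ± 0.12 (adjusted p = 0.0289). BMP2K had 95.8, 102, 118, 86.0 and 119 CPM ipsilaterally and 144, 125, 173, 128 and 172 CPM contralaterally, again without overlap, and fell by 0.52 ± 0.13 (adjusted p = 0.0396). SMAD3 stood at -0.86 ± 0.26 (adjusted p = 0.0805) and was called with the animal as a replicate block (adjusted p = 0.0251). Leaving out a non-lactating cow left 0 or 1 members called.

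In lactating cows the same genes had estimates of the same sign. ACVR1B stood at -0.35 ± 0.17 (adjusted p = 0.446), BMPR1B at -0.42 ± 0.21 (adjusted p = 0.46) and SMAD3 at -0.76 ± 0.33 (adjusted p = 0.393). The estimates of SMAD3 were -0.67, -0.86 and -0.76 in heifers, non-lactating and lactating cows, and those of SMAD7 were -0.81, -1.09 and -0.93. SMAD7 was called within no group under any setting, and SMAD3 was called in heifers and in non-lactating cows with DESeq2 or with the animal as a replicate block.

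**Figure D5:**
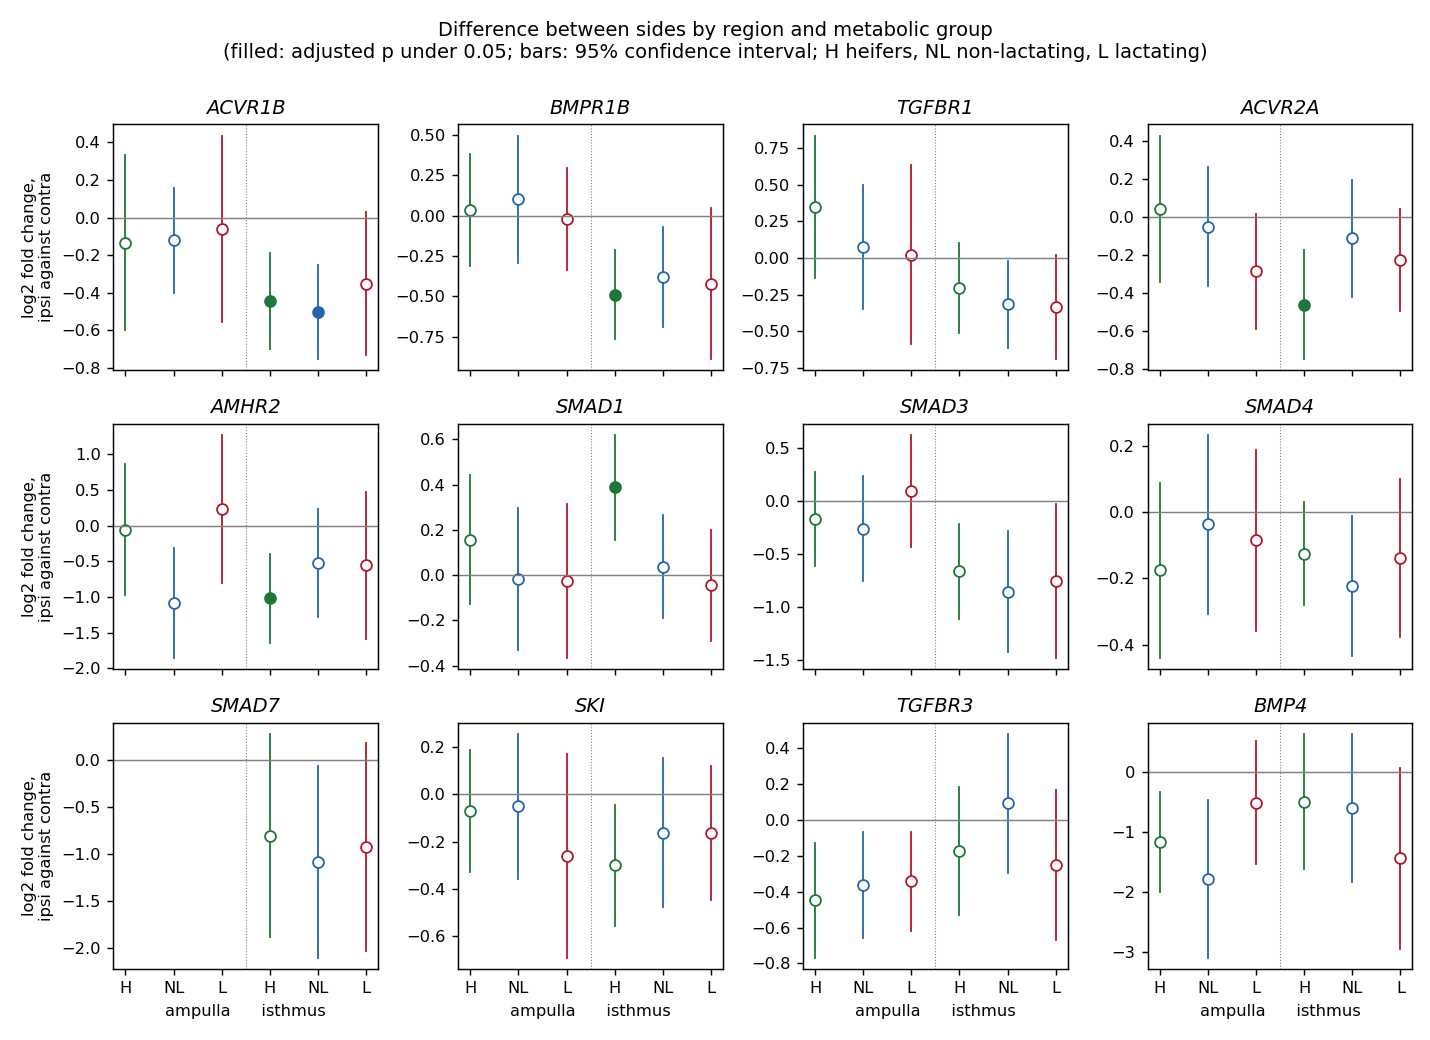
Log2 fold change of the ipsilateral against the contralateral oviduct (vertical axis, log2 scale that differs between panels) for 12 member genes, with 95% confidence intervals, in the ampulla (left of the dotted line) and isthmus (right) of heifers (H), non-lactating (NL) and lactating (L) cows; filled points passed an adjusted p under 0.05 and a missing point did not pass the filter on low counts. ACVR1B, BMPR1B, SMAD3 and SMAD7 lay below 0 in the isthmus of each group, and SMAD1 was above 0 with a filled point in heifers.

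In the ampulla the side of the CL went with few differences. By edgeR 0 of 32 members were called in heifers, 0 of 32 in non-lactating and 0 of 34 in lactating cows, with 3, 5 and 1 at an unadjusted p under 0.05, against 0%, 0.0947% and 0% of all genes and, unadjusted, 9.2%, 11.1% and 4.26%. DESeq2 called 1, 0 and 0 members, the heifer call being ID1 lower in the ipsilateral ampulla. With the groups pooled 2 of 36 members were called, TGFBR3 and BMP4, both lower on the CL side, against 5.41% of all genes (2.71% higher and 2.7% lower, and 20.2% at an unadjusted p under 0.05).

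TGFBR3 ranged from 193 to 358 CPM (median 263) in the ipsilateral and from 248 to 444 CPM (median 353) in the contralateral ampulla. It fell by 0.39 ± 0.08 (adjusted p = 0.0035), a 1.31-fold difference, and stayed called without the libraries that did not match their animal. BMP4, a BMP ligand, had medians of 2.81 CPM (0.870 to 9.98) and 7.86 CPM (1.29 to 25.9), and fell by 1.1996 ± 0.33 (adjusted p = 0.0301). Its call was lost without the 4 mismatched libraries, without the 2 that go against their group, and without heifer A, B or C or non-lactating cow A, B or C. ID1 had medians of 0.839 CPM (0 to 5.99) ipsilaterally and 3.28 CPM (0.884 to 12.3) contralaterally (log2 fold change -1.55 ± 0.52, adjusted p = 0.0754), and with the animal as a replicate block it was called lower (adjusted p = 0.0459). TGFBR2 (-0.16 ± 0.13), TGFBR1 (0.16 ± 0.13), SMAD3 (-0.13 ± 0.12), BMPR1B (0.04 ± 0.10) and ACVR1B (-0.11 ± 0.11) were not called.

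The difference between sides was then compared between the regions. In 2 of 41 members tested it was lower in the isthmus than in the ampulla, against 6.66% of all genes: BMPR1B (interaction -0.46 ± 0.14, adjusted p = 0.0334) and ACVR1 (-0.31 ± 0.10, adjusted p = 0.0456). BMPR1B stood at -0.42 between the sides of the isthmus and 0.04 between the sides of the ampulla, and ACVR1 at -0.11 and 0.21. SMAD3 (-0.61 ± 0.20, adjusted p = 0.0568), TGFBR1 (-0.42 ± 0.15, adjusted p = 0.0729) and ACVR1B (-0.32 ± 0.13, adjusted p = 0.151) did not pass the threshold. With the animal as a replicate block 5 members were called, the adjusted p values of SMAD3, TGFBR1 and ACVR1B being 0.0247, 0.0286 and 0.0435. The 6.66% of all genes belongs to the fit without the block. The share with the block is not given here, so the larger count is not read as particular to the members. Without the 4 mismatched libraries or without the 2 that go against their group SMAD3 alone was called, so the calls of BMPR1B and ACVR1 depend on these libraries. The BMPR1B call was also lost without heifer A, C or E or non-lactating cow B or C, and the ACVR1 call without heifer A, B, D or E, lactating cow D, or non-lactating cow B, C, D or E.

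The metabolic groups were compared in the ipsilateral oviduct to ask whether first calving and milking go with altered expression, and no member was called. In the isthmus edgeR called 0 of 31 members for lactating against non-lactating cows, 0 of 32 for lactating cows against heifers, and 0 of 31 for heifers against cows dried off at calving. Without adjustment 0, 0 and 4 members had a p under 0.05, against 6.26%, 10.4% and 11.8% of all genes, and 0%, 0% and 0.0073% of all genes were called. In the ampulla the counts in the same order were 0 of 33, 0 of 33 and 0 of 32, with 3, 5 and 1 at an unadjusted p under 0.05. All genes gave 3.57%, 7.15% and 3.63% there, with 0% called in each comparison. DESeq2 called 0 members in all 6 comparisons. The 95% interval of the log2 difference lay within -1 to 1 for 23 to 25 of the members in each comparison and within -0.5 to 0.5 for 9 to 15 of them. For the other members tested the interval went beyond -1 or 1, so larger differences were not excluded there. Smaller differences could have been missed in any member.

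The smallest adjusted p of a member was that of TGFBR3, a co-receptor, in the isthmus of non-lactating cows against heifers, followed in the same comparison by ID2 (0.374), ACVR1 (0.383) and TGFBRAP1 (0.39). In the isthmus TGFBR3 ranged from 141 to 204 CPM (median 166) in the 5 non-lactating cows and from 79.0 to 145 CPM (median 121) in the 5 heifers, with overlap (log2 fold change 0.57, unadjusted p = 0.0032, adjusted p = 0.203). TGFBR3 also stood at 0.39 between lactating cows and heifers in the ampulla (adjusted p = 0.515), where the 4 cows had 288 to 358 CPM and the heifers 215 to 281 CPM without overlap. In the same comparison ACVRL1, a type I receptor known from endothelium, had 2.06 to 6.63 CPM in lactating cows and 0 to 1.59 CPM in heifers (log2 fold change 2.09, adjusted p = 0.515). ACVR2B went the other way, with 8.05 to 14.4 CPM in lactating cows and 14.8 to 21.9 CPM in heifers (log2 fold change -0.73, adjusted p = 0.515). The heifer values in this comparison include the library of heifer B, which was most like non-lactating cow B. The 5 endothelial markers tested there had a median log2 fold change of 0.75 and 0 were called. The part of endothelial cells in the ACVRL1 difference was not tested.

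The remaining 19 members were scarce and were not compared. FST, which encodes the activin antagonist follistatin, had a mean of 1.59 ± 1.38 CPM (SD, n = 14) in the contralateral ampulla, 0.564 ± 0.570 in the ipsilateral ampulla, 0.224 ± 0.222 in the contralateral isthmus and 0.0827 ± 0.141 in the ipsilateral isthmus. SMAD6, the inhibitor of the BMP branch, had a mean of 1.38 ± 0.987 CPM in the contralateral isthmus, 0.688 ± 0.507 in the ipsilateral isthmus, and 0.385 ± 0.547 and 0.454 ± 0.583 in the contralateral and ipsilateral ampulla. On the contralateral side BMP6 and INHBB, the activin beta-B subunit, gave 96 and 48 counts over the isthmus libraries and 12 and 6 over those of the ampulla. Over all tissues they gave 153 and 114 counts, with 26 and 23 libraries at 0.

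INHBA, the activin beta-A subunit, gave 7 to 14 counts per tissue, and GREM1, a secreted BMP antagonist, gave 2 counts in each contralateral tissue and 0 in each ipsilateral tissue. NOG, another BMP antagonist, gave 2 to 17 counts per tissue. BMP8A and INHBC had no count in any library. These levels lie at or under what 3 counts are worth in most libraries, so no order between the tissues was read from those of INHBA, GREM1 and NOG.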

How the data were processed

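Stranded libraries of total RNA were sequenced as 100 bp single-end reads; the authors trimmed them, mapped them with TopHat2 2.0.13 to the Btau_4.6.1 cattle assembly and counted them per gene symbol with HTSeq 0.6.1, and deposited whole-number counts, not normalised. Between 8.66% and 13.7% of the counted reads lay on genes, and 5 summary lines were left out. Columns were assigned to groups by name, with the animal number in each column name as the pairing.

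Counts were TMM-normalised and tested with edgeR 4.0.16 (R 4.3.3; quasi-likelihood F test, filterByExpr with a minimum count of 10) on all genes, two-sided, with Benjamini-Hochberg adjustment and a threshold of 0.05. Errors of log2 fold changes are standard errors. CPM values use TMM-scaled library sizes. The steps were tested on simulated counts. The members and gene lists were chosen with earlier results of these data known. Every called member is named, or the 25 with the largest change where more were called; library values are given for the 3 largest rises and falls in the pooled isthmus and the region comparisons and for a fixed list of signalling genes whether called or not. Other genes printed with library values were chosen after their values were seen.

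Most libraries of the same animal deviated together from their group means (26 pairs of sides, median correlation 0.34, -0.043 to 0.66, over 10616 genes); the pairing comes from the animal numbers, and a fit with the animal as a replicate block was run as an alternative. Other alternatives were RLE size factors, DESeq2 1.42.0, no filter, a single fit per region, leaving out each animal, and leaving out or exchanging the mismatched libraries. The authors' own comparisons used DESeq2. Coordinates and sequences are not used here.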

Additional observations from a re-analysis of the deposited data

Results flagged for a closer look

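A single library lay far from the others of its group (Dixon's test) in 12 of 192 groups of 4 or 5 libraries over 16 genes; chance gives about 1 in 20 groups. Among receptors, the BMPR1B library numbered non-lactating B in the ipsilateral ampulla had 295.1 CPM against 177.9 to 206.4 CPM, and it is 1 of the 2 libraries that go against their group. TGFBR1 was low in a lactating ipsilateral ampulla library (21.04 CPM against 25.08 to 25.34 CPM), one of those with an exchanged animal number, and high in non-lactating cow B in the ipsilateral isthmus (23.85 CPM against 20.31 to 20.72 CPM). TGFBR2 was high in non-lactating cow E in the contralateral isthmus (31.83 CPM against 27.21 to 28.08 CPM), ACVR1B in non-lactating cow C there (75.26 CPM against 58.8 to 61.96 CPM), and ACVR2A was low in lactating cow D in the contralateral ampulla (70.45 CPM against 77.88 to 78.94 CPM).

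Among ligands and SMADs, TGFB2 was low in heifer E in the ipsilateral ampulla (12.39 CPM against 24.95 to 25.84 CPM), SMAD1 was low in heifer B in the contralateral ampulla (28.81 CPM against 37.59 to 40.71 CPM), and SMAD7 was high in heifer A in the ipsilateral ampulla (2.98 CPM against 0.1906 to 0.8076 CPM). Among the targets, ID1 was high in the ipsilateral isthmus of heifer A (2.566 CPM, the others at 0) and of non-lactating cow E (4.292 CPM against 0 to 0.5415 CPM), and ID3 was high in heifer E in the contralateral ampulla (24.69 CPM against 8.618 to 11.42 CPM).

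The difference between the sides differed between the regions for BMPR1B (interaction -0.463798 on the log2 scale) and ACVR1 (-0.314791), with the libraries these calls rest on given in the report.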

How the results depend on the processing

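Counts of called members stayed within 8 to 11 for the pooled isthmus sides, 20 to 24 for the regions ipsilaterally and 23 to 26 contralaterally over all alternatives run. The smaller counts varied more. In heifers the isthmus count of 5 became 1 without a filter and 3 in a single fit of the region, and 0 to 4 with each heifer left out; in non-lactating cows the count of 2 became 0 to 1 with each cow left out, and 3 (with SMAD3) with DESeq2 and with the animal number as replicate block. In the ampulla of heifers DESeq2 called 1, and in non-lactating cows the replicate block by the animal each library is most like, added after seeing the data, called 1 (BMP4). The pooled ampulla count of 2 became 6 with DESeq2, 4 with that block, 3 with the animal number as replicate block, 1 without the 4 mismatched libraries, 1 without the 2 against their group (added after seeing the data), and 1 to 4 with each animal left out. The side by region count of 2 became 1 without a filter, 5 with either replicate block, 1 without the 4 or the 2 libraries, and 0 to 3 with each animal left out. Of the values of called members under an alternative, 1156 kept their direction and side of the threshold, 86 were no longer called and 0 reversed. The causes were not tested. The share of all genes called under each alternative is not given here, so changes in these counts are not read as particular to the members. The block by animal number changed no call other than those named here and in the report. No paired analysis was possible between the metabolic groups because they share no animal. Members near or under 1.55 CPM rest on about 3 counts or fewer in the shallowest library.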
